A study of Anopheles coluzzii and Anopheles merus with 32 samples.

Results

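Larvae of 2 malaria mosquitoes aged 66 h were compared for how 6 h in saltwater (SW) changed their RNA levels, and the interaction of species with water asks of every gene whether that change differed between them. The interaction was computed as the SW minus FW change in Anopheles merus, less the same change in Anopheles coluzzii, FW being freshwater. The 4 groups at this age were An. merus in SW, An. merus in FW, An. coluzzii in SW and An. coluzzii in FW, with 4 libraries in each, which is 16 of the 32 libraries of the series. The other 16 libraries are the same groups at 18 h after hatching. All larvae, those later placed in SW included, were reared in FW until they were 66 h old and then spent 6 h in SW or in FW. A library was made from whole bodies of a pool of 35 to 50 larvae, and the labels give neither the salinity of the SW nor whether pools that share a group were grown in separate cultures. The p-values therefore measure the spread between pools, which may be partly technical. That spread was taken from all 32 libraries, those at 18 h included. The sample titles write the freshwater groups with the code DI, while another label calls the same water freshwater.

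An. merus is a euryhaline species of the An. gambiae complex, meaning that its larvae live in fresh, brackish and salt water, whereas An. coluzzii larvae are stenohaline and live in fresh water. In fresh water, mosquito larvae gain water and lose ions across the body surface, take ions up through the anal papillae, and pass a dilute urine after the rectum has recovered salt from the fluid made by the Malpighian tubules. In salt water the demands are reversed, and larvae of saline-tolerant species excrete excess salt in a concentrated urine. In anopheline larvae the rectum is the organ where this switch takes place, and ion pumps there change position when salt-tolerant larvae move between waters. RNA of whole larvae sums over all organs, so that fewer cells of a type and less RNA per cell cannot be told apart in any value given here.

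The values are CPM, reads relative to the size of the library after a scaling that assumes that most genes have similar levels between libraries, for 11025 gene identifiers shared by both species. Of these, 10505 with a mean of at least 1 CPM were tested on the log2(CPM + 1) scale, on which the changes of genes with low values are understated. The identifiers are printed as deposited, because the files do not pair them with gene names and 0 of 11025 matched the names table at hand. For this reason no function is given for any gene, and 34 lists of genes by function had no member that could be looked up. Libraries held 7589872 to 13172773 reads in An. merus in SW and 11031968 to 16621515 in An. merus in FW. Those of An. coluzzii held 5732121 to 16453290 in SW and 4207326 to 11865110 in FW. The 100 genes with most reads took 45.7 to 47.7% of reads in An. merus in SW and 41.9 to 43.8% in An. merus in FW, against 38.8 to 40.3% in An. coluzzii in SW and 37.8 to 42.2% in An. coluzzii in FW. The median SD of a gene between replicates was 0.185, 0.191, 0.169 and 0.202 on the log2 scale in the same order of groups.

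About 1 gene in 3 changed differently in the 2 species. The interaction was called, at an adjusted p below 0.05 by limma with Benjamini-Hochberg adjustment, for 3368 of the 10505 genes tested (32.1%). It was positive, that is more upward in An. merus, for 1527 genes (14.5%) and negative for 1841 (17.5%). Its absolute value was at least 1 on the log2 scale for 987 called genes, of which 546 were positive and 441 negative, and at least 2 for 94, of which 76 were positive and 18 negative. Over all genes tested the interaction had a median of -0.06 and an SD of 0.65, with a median standard error of 0.223 for a single gene. The split between directions depended on how libraries were scaled: with every library brought to the same sum in place of the deposited scaling, 843 genes were positive and 3088 negative, and the median interaction was -0.28. No gene called at the deposited scaling was called in the opposite direction at equal sums, where 843 of the 1527 positive and 1838 of the 1841 negative genes remained called.

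In nearly all of these genes the larger change was in An. merus. Saltwater changed 6014 genes in An. merus (57.2% of those tested), 2714 of them higher (25.8%) and 3300 lower (31.4%) in SW. This split also depended on scaling: at equal library sums 1662 genes were higher and 4456 lower in An. merus in SW. Saltwater changed 235 genes in An. coluzzii (2.24%), 142 of them higher (1.35%) and 93 lower (0.885%), against 149 and 80 at equal library sums. In 3271 of the 3368 genes with a called interaction (97.1%) the change was larger in size in An. merus, against 80.6% of all genes tested. Among the genes with a positive interaction, the median change was 0.90 in An. merus and 0.08 in An. coluzzii. Among those with a negative interaction, it was -0.82 in An. merus and -0.06 in An. coluzzii. These medians describe genes selected on the same contrast and are not a separate test. The count in An. coluzzii rests on few libraries: it was 146, 110 and 118 without SW replicate 1, 2 or 3 of that species and 132 without its FW replicate 2.

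**Figure D1:**
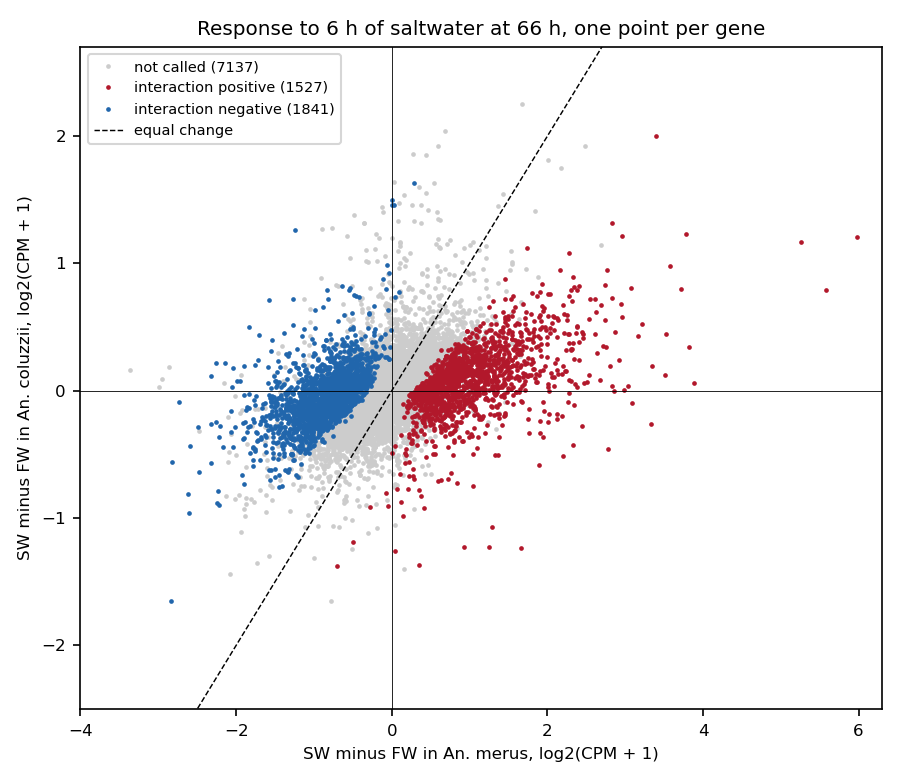
Change in saltwater (SW minus FW, log2(CPM + 1)) in An. merus on the x axis and in An. coluzzii on the y axis, 1 point for each of 10505 genes. Points with a called interaction spread along the x axis (1527 positive in red, 1841 negative in blue), and few lie near the dashed line of equal change.

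Sorted by which species changed, one class held most genes in either direction. Of the genes with a positive interaction, 1413 (92.5%) were called higher in SW in An. merus and were not called in An. coluzzii, and 65 (4.26%) were called higher in both species and more so in An. merus. Of the genes with a negative interaction, 1745 (94.8%) were called lower in SW in An. merus and were not called in An. coluzzii, and 28 (1.52%) were called lower in both. At equal library sums these 2 leading classes held 88.6% of the positive and 94.8% of the negative genes. A gene not called in An. coluzzii is not thereby shown to be unchanged there, and the interaction itself is the test of the difference.

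On the log2(CPM + 1) scale and under the rule for named genes, the 2 highest interactions belonged to identifiers that were near 0 CPM outside An. merus in saltwater. AGAP004583 had 77.98, 79.75, 88.8 and 52.3 CPM in the 4 An. merus SW libraries, against 0.321, 0.693, 0.448 and 0.773 CPM in An. merus in FW. In An. coluzzii it had 0.742, 1.94, 2.55 and 1.32 CPM in SW, compared with 0.59, 0.759, 0.541 and 0.0915 CPM in FW. Each An. merus SW library thus lay far above the other 12, and the SW and FW libraries of An. coluzzii overlapped in part. The change was 5.59 ± 0.22 in An. merus and 0.79 ± 0.22 in An. coluzzii (log2(CPM + 1), standard error, n = 4 libraries per group), where it was not called (limma adjusted p 0.0507). The interaction was 4.79 ± 0.31 (limma adjusted p 7.0e-12).

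AGAP004581 showed the same arrangement at a higher level. It had 123.5, 122.6, 139.6 and 73.2 CPM in An. merus in SW, compared with 0.857, 0.308, 0.746 and 1.35 CPM in An. merus in FW. It had 2.04, 4.89, 4.08 and 1.22 CPM in An. coluzzii in SW, compared with 0.708, 0.253, 0.721 and 0.915 CPM in An. coluzzii in FW. In both species no SW library overlapped an FW library, but the level reached in An. coluzzii stayed below every An. merus SW library. The interaction was 4.78 ± 0.42 (limma adjusted p 2.3e-09), from a change of 5.98 ± 0.30 in An. merus and of 1.21 ± 0.30 in An. coluzzii. The An. coluzzii change had a limma adjusted p of 0.0261, which was 0.137 without that species' SW replicate 2, 0.097 without SW replicate 3, 0.0935 without FW replicate 2 and 0.0504 without FW replicate 1.

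The identifier between them in number, AGAP004582, was looked up after these values had been seen. It had 11.6, 9.27, 7.87 and 3.81 CPM in An. merus in SW, compared with 0, 0.077, 0 and 0 CPM in An. merus in FW, and at most 0.251 CPM in An. coluzzii in SW and 0.721 CPM in An. coluzzii in FW. Its reads numbered 228 over the 4 An. merus SW libraries and 1, 6 and 5 over the other 3 groups, so its level outside An. merus in SW was at the limit of detection. Its interaction was 3.18 ± 0.32 (limma adjusted p 2.3e-08), but its size rests on how values near 0 are treated: it was 1.58 with a pseudocount of 4 CPM, 8.22 with edgeR and 8.79 with DESeq2. Whether reads can be shared among these 3 consecutive identifiers by near-identical sequence was not examined, and they are not counted as independent observations. They belong to a run of 4 identifiers, up to AGAP004584, all with a called positive interaction and with a median of 3.98.

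The 2 lowest interactions under the same rule were of a different form, with an abundant or moderately expressed gene that fell in An. merus. Over all genes tested the lowest interaction was -3.52, in a gene that the rule left out. AGAP005997 had 229.7, 245.7, 173.5 and 218.1 CPM in An. merus in SW, compared with 1381, 1680.0, 1597 and 1163 CPM in An. merus in FW. In An. coluzzii it had 767.9, 839.3, 896.6 and 626.8 CPM in SW, compared with 707.6, 761.7, 794.7 and 1072 CPM in FW. The order of the species was therefore opposite in the 2 waters: An. merus lay above every An. coluzzii library in FW and below every one in SW. The change was -2.74 ± 0.16 in An. merus and -0.09 ± 0.16 in An. coluzzii, and the interaction was -2.65 ± 0.22 (limma adjusted p 1.1e-09).

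AGAP008447 had 4.95, 5.29, 6.43 and 2.54 CPM in An. merus in SW, compared with 20.1, 20.9, 27.3 and 37.9 CPM in An. merus in FW. In An. coluzzii it had 14.7, 16.9, 19.8 and 4.87 CPM in SW, compared with 6.01, 9.11, 13.2 and 17.6 CPM in FW. The An. merus groups were separate and the An. coluzzii groups overlapped over most of their range. The interaction was -2.47 ± 0.48 (limma adjusted p 2.5e-04), with a change of -2.25 ± 0.34 in An. merus. Its standard error was the largest among these 4 genes. In a fit of only the 16 libraries at 66 h the standard error was 0.56 and the limma adjusted p 0.0044.

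**Figure D2:**
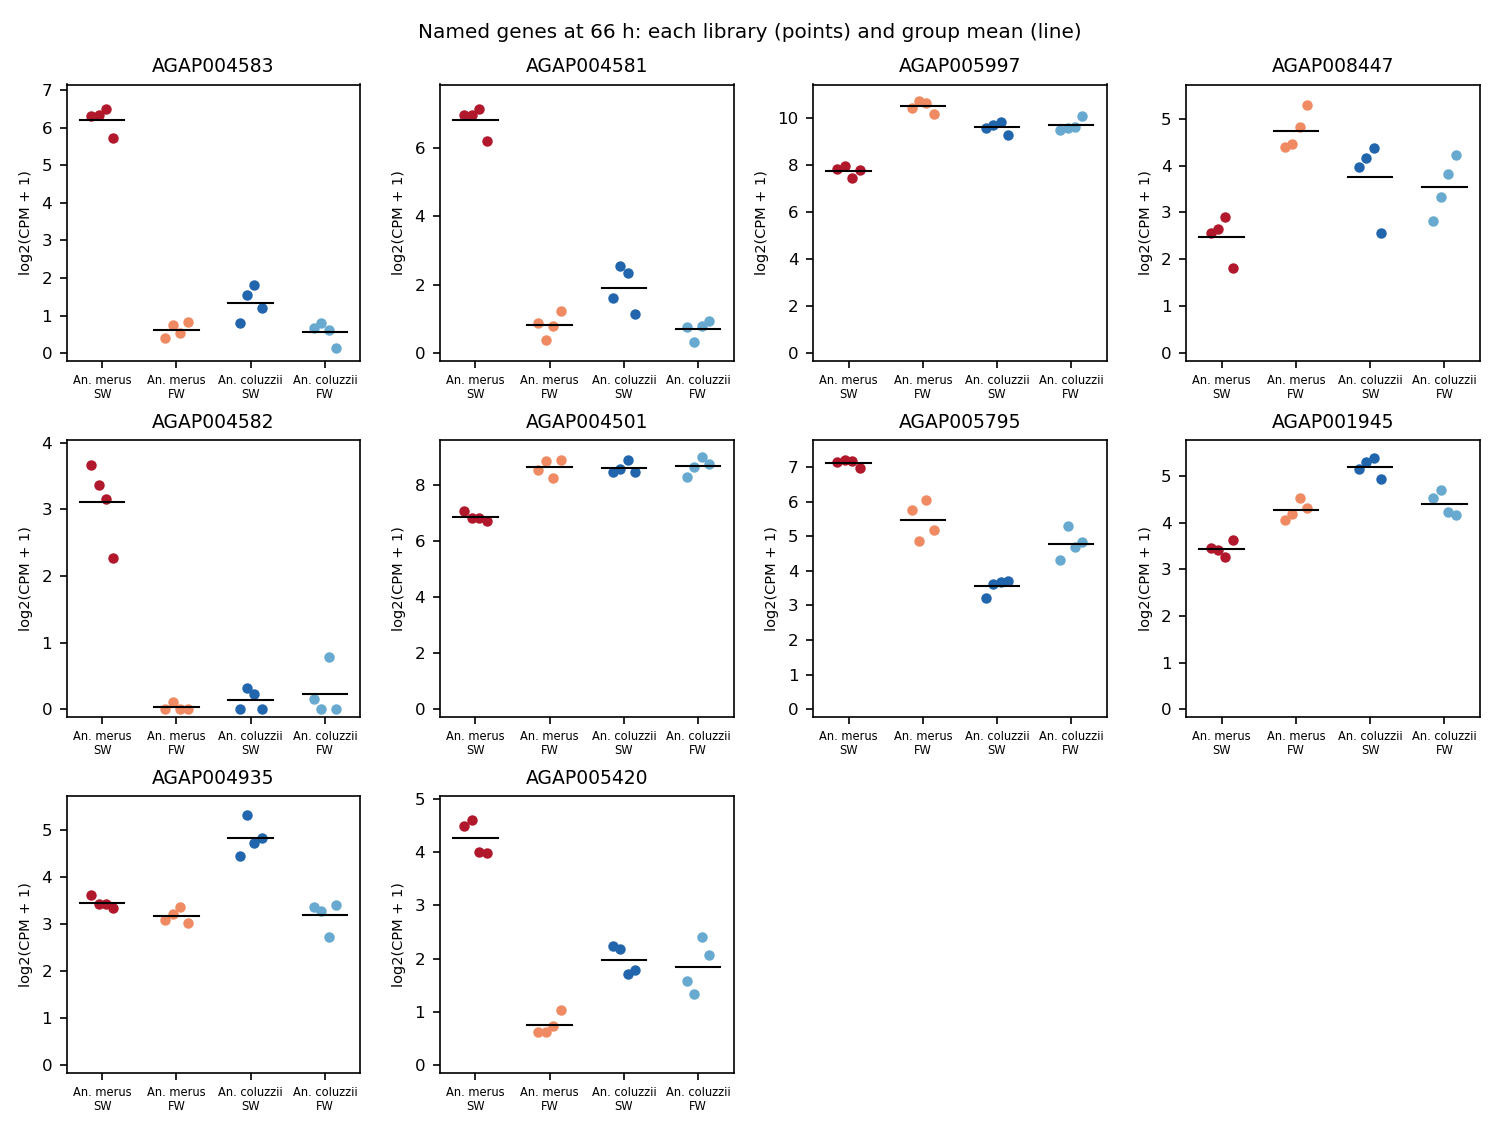
Levels of the 10 identifiers described in the text, on a log2(CPM + 1) axis, with 1 panel for each. Points are the 4 libraries of a group and lines are group means, in the order An. merus SW, An. merus FW, An. coluzzii SW and An. coluzzii FW. AGAP004583 and AGAP004581 are high in An. merus SW, at 52.3 CPM or more in every library, and at most 4.89 CPM in every other group.

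The position of the 4 groups relative to each other was read gene by gene, by asking whether all 4 libraries of a group lay outside the range of the other 12. All 4 An. merus SW libraries lay above the other 12 for 1157 genes with a positive interaction, where 1755 of all tested genes (16.7%) had this arrangement. They lay below the other 12 for 1134 genes with a negative interaction, where 1672 of all tested genes (15.9%) did. At equal library sums the counts were 748 and 1523, against 864 and 3056 of all tested genes. These counts use the contrast that chose the genes and describe its form. For the larger number of genes with an interaction, then, An. merus in SW stood apart. Set against FW alone, the SW libraries of An. merus did not overlap those in FW for 1410 genes with a positive and 1667 with a negative interaction (5245, or 49.9%, of all tested). In An. coluzzii they did not overlap for 230 with a positive and 241 with a negative interaction (1177, or 11.2%, of all tested).

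A gene can be counted here for more than 1 group apart. An. merus in FW stood apart in a smaller number of genes. Its 4 libraries lay below the other 12 for 217 genes with a positive interaction (352, or 3.35%, of all tested) and above them for 392 with a negative one (669, or 6.37%, of all tested). The An. coluzzii groups stood apart in fewer genes. An. coluzzii in SW lay below the other 12 for 17 genes with a positive interaction (86, or 0.819%, of all tested) and above them for 27 with a negative one (95, or 0.904%, of all tested). An. coluzzii in FW lay below the other 12 for 57 genes with a positive interaction (160, or 1.52%, of all tested) and above them for 72 with a negative one (230, or 2.19%, of all tested). AGAP005420, chosen after its values were seen as an example, had 21.4, 23.3, 14.97 and 14.89 CPM in An. merus in SW, compared with 0.535, 0.539, 0.671 and 1.06 CPM in An. merus in FW. It had 3.71, 3.51, 2.29 and 2.43 CPM in An. coluzzii in SW, compared with 2.005, 1.52, 4.33 and 3.20 CPM in An. coluzzii in FW. Its An. merus SW libraries also lay above the other 12, so it counts for both An. merus groups. The An. merus FW libraries held 5, 7, 9 and 11 reads. The An. coluzzii FW library at 1.52 CPM held 6, so the separation in FW rests on few reads. In this gene An. merus was below An. coluzzii in FW by 1.10 on the log2 scale (limma adjusted p 5.5e-05) and above it in SW by 2.29, with an interaction of 3.39 ± 0.29 (limma adjusted p 1.1e-09), which was 2.19 with a pseudocount of 4 CPM.

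The same genes can be read as differences between species within a water. Over all genes tested the species differed in 7067 (67.3%) in SW and in 5360 (51%) in FW. Of the genes with a positive interaction, 1273 (83.4%) had the larger gap between species in SW, as did 1346 (73.1%) of those with a negative one, against 6918 (65.9%) of all tested genes. A species difference called in SW but not in FW was found for 736 genes with a positive and 843 with a negative interaction, and for 2836 (27%) of all tested genes. The reverse, called in FW but not in SW, held for 138 genes with a positive and 325 with a negative interaction, and for 1129 (10.7%) of all tested genes. In 132 genes with a positive and 183 with a negative interaction the species differed in both waters with opposite signs, as AGAP005997 did, and these were all 315 (3%) of the tested genes with that arrangement. The interaction is the difference between these species gaps, so the counts describe its form. Reads of both species were assigned to 1 set of identifiers, so a difference between species within a water can also carry how readily each species' reads align. The part of alignment in the interaction was not tested, and 3 of the 8 tested genes with 0 reads in all An. merus libraries at 66 h had a called interaction.

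The An. coluzzii change mostly had the sign of the An. merus change, at a fraction of its size. Genes were grouped by their change in An. merus, and the change in An. coluzzii, measured in separate libraries, was read off each group. In the 123 genes that were higher in SW by at least 2 on the log2 scale in An. merus, the median change was 2.34 in An. merus and 0.43 in An. coluzzii (quartiles 0.11 and 0.68), and 87% of them had the same sign in both species. In the 624 genes between 1 and 2 in An. merus, the medians were 1.31 and 0.23, with 84.3% of the same sign. In the 735 genes between -2 and -1 in An. merus, the medians were -1.20 and -0.20, with 83.4% of the same sign, and in the 40 genes below -2 they were -2.22 and -0.32, with 75%. In the groups between 0.25 and 1 in size in An. merus, in either direction, 63.7 to 78% had the same sign. Among the 3077 genes that changed by less than 0.25 in An. merus, 55.5% had the same sign. Genes within a library are not independent replicates, and these shares carry no test. Grouping on the An. merus change enlarges the An. merus medians of the outer groups. Other scalings were not applied to these groups.

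**Figure D3:**
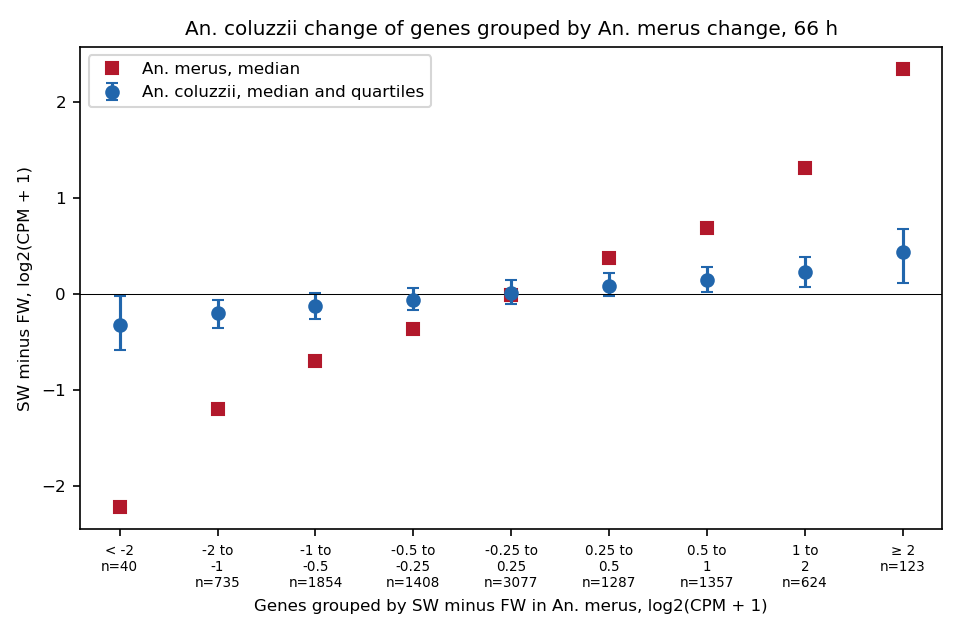
Genes grouped by their change in An. merus (x axis, SW minus FW, log2(CPM + 1), with the number of genes). Squares are the An. merus medians and circles the An. coluzzii medians with quartiles; the An. coluzzii medians keep the order of the groups, between -0.32 and 0.43, while those of An. merus lie between -2.22 and 2.34.

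The share of genes with a called interaction differed between these groups of genes, as it must in part, since the An. merus change is a term of the interaction. It was called in 96.7% of the genes at or above 2 in An. merus, 85.9% of those between 1 and 2, 81.4% of those between -2 and -1 and 65% of those below -2. It was called in 2.44% of the genes that changed by less than 0.25 in An. merus. Of the 1473 genes that saltwater called and changed at least 2-fold in An. merus, 1278 (86.8%) had a called interaction, 655 of them positive and 623 negative. Of the 235 genes called in An. coluzzii, 133 had a called interaction, against 3368 (32.1%) of all genes tested. The An. coluzzii change is a term of the interaction too. The other 102 of the 235 genes had no called interaction, and in all 102 the An. merus value had the same sign, called or not, which the absence of a called interaction nearly fixes.

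Genes with the larger change in An. coluzzii were few. Among the called interactions there were 97 of them (of 3368), and 34 of those were themselves called in An. coluzzii. That count was 18 without SW replicate 3 of An. coluzzii and 22 without its FW replicate 2, but 59 without its FW replicates 3 and 4 together and 51 with a pseudocount of 4 CPM. AGAP004935, chosen after its values were seen, had 11.2, 9.76, 9.76 and 9.08 CPM in An. merus in SW, compared with 7.50, 8.32, 9.25 and 7.05 CPM in An. merus in FW. In An. coluzzii it had 20.8, 38.5, 25.1 and 27.2 CPM in SW, compared with 9.32, 8.60, 5.59 and 9.61 CPM in FW. The An. coluzzii SW libraries stood above all other libraries. The change was 1.63 ± 0.17 in An. coluzzii (limma adjusted p 6.8e-07) and 0.28 ± 0.17 in An. merus (limma adjusted p 0.157), with an interaction of -1.35 ± 0.24 (limma adjusted p 7.9e-05).

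Saltwater moved the species in opposite directions, with the change called in both, in 8 genes, of which 4 were higher in An. merus and lower in An. coluzzii and 4 the reverse. The count was 5, 5 and 4 without An. coluzzii SW replicate 1, 2 or 3 and 4 without its FW replicate 3. It was 12 without An. merus SW replicate 4, 13 without An. coluzzii FW replicates 3 and 4 together and 17 with DESeq2. AGAP005795, chosen after its values were seen, had 141.1, 146.3, 143.8 and 125.1 CPM in An. merus in SW, compared with 53.6, 28.3, 64.8 and 35.2 CPM in An. merus in FW. It had 8.35, 11.2, 11.89 and 11.97 CPM in An. coluzzii in SW, compared with 18.8, 38.7, 24.9 and 27.6 CPM in An. coluzzii in FW. In neither species did the waters overlap. The change was 1.66 ± 0.22 in An. merus and -1.23 ± 0.22 in An. coluzzii (limma adjusted p 0.002), and the interaction was 2.90 ± 0.32 (limma adjusted p 9.4e-08).

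AGAP001945, also chosen after its values were seen, ran the other way at lower levels. It had 10.04, 9.596, 8.54 and 11.4 CPM in An. merus in SW, compared with 15.7, 17.1, 21.9 and 18.9 CPM in An. merus in FW. In An. coluzzii it had 34.7, 38.2, 40.6 and 29.7 CPM in SW, compared with 21.9, 24.8, 17.8 and 17.0 CPM in FW. The groups of An. merus in FW and An. coluzzii in FW shared a range, and saltwater parted them on opposite sides of it. The change was -0.83 ± 0.14 in An. merus and 0.79 ± 0.14 in An. coluzzii (limma adjusted p 0.001), with an interaction of -1.62 ± 0.19 (limma adjusted p 3.2e-07). The An. coluzzii change had a limma adjusted p of 0.0726 when every library was thinned to the same number of reads.

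The direction of the interaction differed with how strongly a gene was expressed. Expression was taken from the 16 libraries at 18 h. Their levels are not a term of the 66 h contrast, but its test used their spread. Among the 1318 genes with a mean of 100 CPM or more there, 509 (38.6%) were called, 404 positive and 105 negative. Among the 3390 genes between 5 and 20 CPM, 1140 (33.6%) were called, 317 positive and 823 negative. The genes between 20 and 100 CPM were near balance, with 641 positive and 660 negative. Positive calls made up 79.4% of the calls at 100 CPM or more and 27.8% of those between 5 and 20 CPM. The split depended on scaling: it was 42.8% and 12.7% at equal library sums and 47.7% and 46.6% after quantile normalisation.

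**Figure D4:**
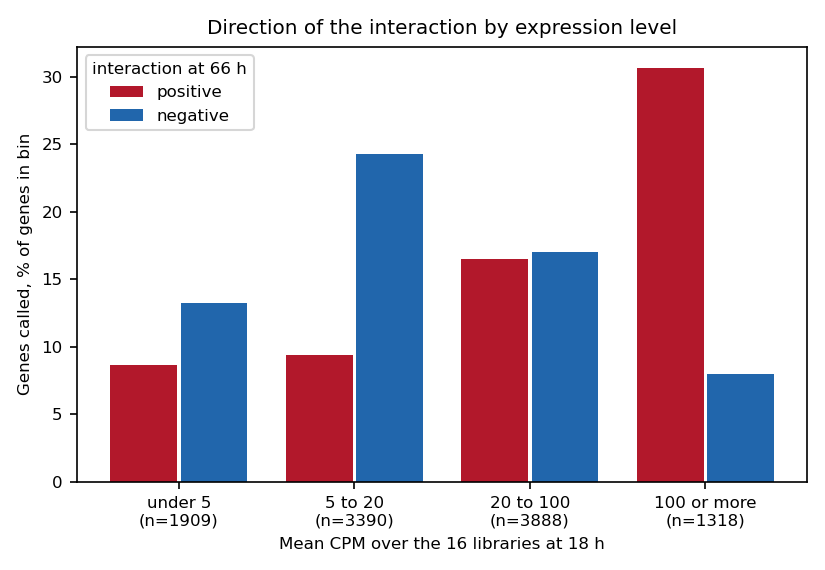
Share of genes called for the interaction at 66 h (y axis, % of the genes in a bin), by mean CPM over the 16 libraries at 18 h, for positive (red) and negative (blue) interactions at the deposited scaling. Negative calls lead below 20 CPM and positive calls at 100 CPM or more, where 404 genes were positive and 105 negative.

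As a share of all expression, the genes with a positive interaction summed to a median of 49% of the CPM total in An. merus in SW and 38.6% in An. merus in FW, against 39.4% in An. coluzzii in SW and 38.4% in An. coluzzii in FW. The genes with a negative interaction summed to 3.11% in An. merus in SW and 7.3% in An. merus in FW, against 7.01% in An. coluzzii in SW and 7.27% in An. coluzzii in FW. For both sets of genes 3 groups were close together and An. merus in SW stood apart, which the choice of the genes by the same contrast largely fixes. The scaling factor of the libraries averaged 0.692 in An. merus in SW and 0.822 in An. merus in FW, against 0.943 in both An. coluzzii groups, and its part in the balance of directions was not tested beyond the alternative scalings given.

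The same interaction was measured at 18 h in other libraries than those at 66 h. A single fit took the spread of each gene from all 32 libraries, so the calls at both ages are not independent. The labels do not say whether pools at 18 h and 66 h came from separate cultures. At 18 h the interaction was called for 2201 genes (21%). Of the 3368 genes called at 66 h, 1385 were also called at 18 h with the same sign (41.1% of the list at 66 h and 62.9% of the list at 18 h), of which 771 were positive and 614 negative, and 19 were called with opposite signs. The sign at 18 h was the same for 91.7% of the genes called at 66 h, against 74.6% of all genes tested. Across the 10505 genes, which share libraries within an age and are not independent, the correlation between ages was 0.627 by Pearson's r and 0.626 by Spearman's rho. Genes positive at 66 h had a median interaction of 0.82 at 66 h and 0.53 at 18 h, and genes negative at 66 h had medians of -0.77 and -0.39. Selection on the values at 66 h enlarges the medians at that age. Over all genes the median absolute interaction was 0.384 at 66 h and 0.306 at 18 h.

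A called interaction at 66 h and none at 18 h, found in 1964 genes, does not show that the ages differ, and the difference was tested directly. The interaction at 66 h less that at 18 h was called for 114 genes (1.09%), of which 50 had a positive and 64 a negative difference. At an unadjusted p below 0.05 there were 1398 genes. Of the 114 genes, 89 were also called at 66 h, against 3368 (32.1%) of all genes tested. In 74 of the 89 genes the interaction was larger in size at 66 h, and in 46 of the 89 it had the opposite sign at 18 h. Over all genes tested, 74.6% had the same sign at both ages. The interaction at 66 h is a term of the difference between ages, so choosing genes on that difference favours these counts. The count of 114 was 63 without An. merus 18 h FW replicate 2, 74 after quantile normalisation or with thinned libraries and 219 with DESeq2.

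AGAP004501, chosen after its values were seen, had an interaction of opposite sign at the 2 ages. At 66 h it had 132.3, 110.5, 113.0 and 104.4 CPM in An. merus in SW, compared with 364.7, 462.8, 298.7 and 476.5 CPM in An. merus in FW. In An. coluzzii at 66 h it had 349.2, 377.3, 470.1 and 348.6 CPM in SW, compared with 306.8, 392.0, 513.4 and 427.8 CPM in FW. An. merus in SW was thus the low group at this age, with an interaction of -1.70 ± 0.47 (limma adjusted p 0.0067). This standard error also holds the spread at 18 h. In a fit of only the 16 libraries at 66 h it was 0.23, with a limma adjusted p of 3.45e-05. At 18 h it lay between 94.9 and 119 CPM in An. merus in SW, compared with 16.9 to 30.3 CPM in An. merus in FW, 23.5 to 42.4 CPM in An. coluzzii in SW and 8.55 to 49.7 CPM in An. coluzzii in FW. The interaction there was 1.47 ± 0.47 (limma adjusted p 0.026), and the difference between ages was -3.17 ± 0.66 (limma adjusted p 0.015).

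In AGAP004501 the An. merus SW libraries thus spanned 94.9 to 132.3 CPM over both ages, while the other 3 groups were below that range at 18 h and above it at 66 h. In AGAP005997 the interaction was negative at both ages, -2.65 at 66 h and -1.21 at 18 h, and the difference of -1.45 ± 0.32 was called (limma adjusted p 0.018, and 0.081 after quantile normalisation). For the highest interactions no difference between ages was called. AGAP004583 had 4.79 at 66 h and 3.95 at 18 h (limma adjusted p of the difference 0.400), and AGAP004581 had 4.78 and 4.26 (0.762). AGAP008447 had -0.20 at 18 h (limma adjusted p 0.813), on 16 to 41 reads per group at that age, and the difference between ages was not called.

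**Figure D5:**
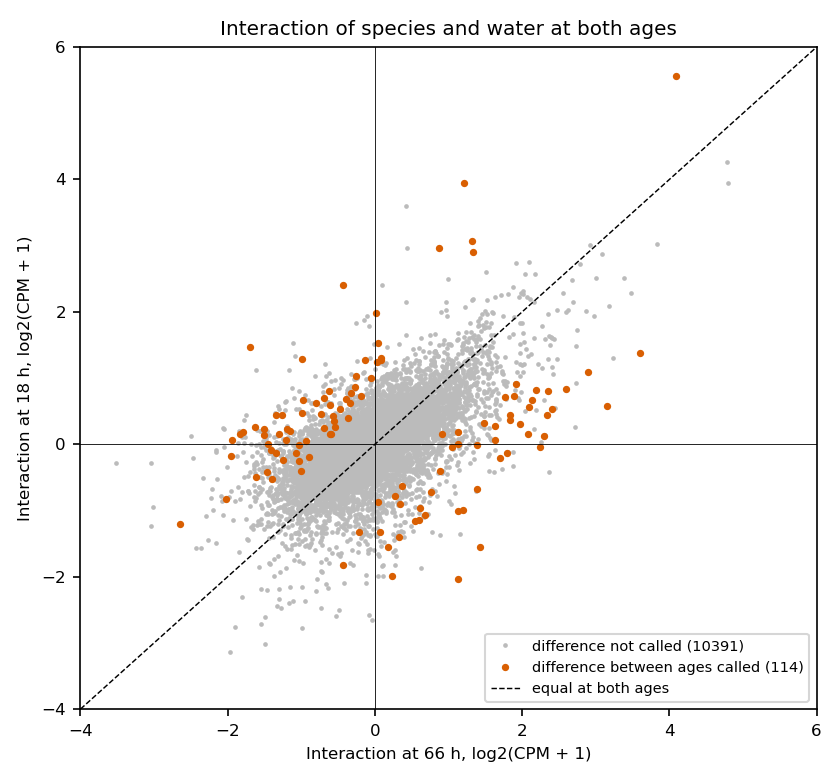
Interaction at 66 h (x axis) and at 18 h (y axis), log2(CPM + 1), 1 point per gene, with the 114 genes whose interaction differed between ages in orange. Points scatter around the dashed line of equal values, and the orange points lie away from it on both sides.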

How the data were processed

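Libraries were made from DNase-treated RNA with polyA selection and the TruSeq RNA v2 kit, per the labels' protocols. The kit does not mark strand, so strand cannot tell apart the reads of genes that overlap on opposite strands. The authors' deposited table holds a signal per gene, named as CPM with TMM scaling (trimmed mean of M values). Tools named in the submitters' processing notes are edgeR, HTSeq, TopHat2, Bowtie2 and Trimmomatic. Genome build, annotation and filter are not given in the sources used here. In every library the deposited values were whole multiples of 1 read, for 100% of values within 0.01 reads. TMM factors recomputed from these reads matched within 2.2e-16.

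Values were tested as log2(CPM + 1) with limma 3.58.1 in R 4.3.3. The model had 8 group means over the 32 libraries and 24 residual degrees of freedom, with trend and robust moderation, two-sided tests and Benjamini-Hochberg adjustment over 10505 genes. The 520 genes with a mean below 1 CPM were left out. The test had been planned for CPM and was used for this signal. Alternatives were other pseudocounts, filters and scalings, edgeR 4.0.16 and DESeq2 1.42.0 on the recovered read counts, and fits without each library in turn. Fits without a library at 18 h served only the difference between ages. Thinned libraries, the fit without An. coluzzii FW replicates 3 and 4 and the bins by expression were added after seeing the data. The contrast, gene lists and rule for named genes were chosen with earlier results of these data known. That rule took the highest and lowest called interactions among genes that averaged 5 CPM or more in some group at 66 h and no overlap of SW and FW libraries in at least 1 species. With no gene names at hand, 2 of each were printed, and 6 more identifiers were chosen after their values were seen.

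On simulated counts for the interaction at 66 h, with 200 of 10505 genes changed, the fit recovered 16.4% of the changes of 1.5-fold, 52.2% of 2-fold and 92.4% of 4-fold, and 5.31% of its calls were false. The changed genes had at least 5 CPM in each species at 66 h. They were changed in An. merus SW alone, with scaling factors held fixed. In the data 3368 genes were called and the calls moved with scaling, so these shares cannot be carried over to those calls. Statements on few reads cover counting error only. Figures were drawn with matplotlib 3.10.9.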

Additional observations from a re-analysis of the deposited data

Results flagged for a closer look

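The difference between the species' responses to saltwater passed its test in 3368 genes at 66 h. Among the 10 identifiers described, the interaction was 4.79 for AGAP004583, 4.78 for AGAP004581, 3.18 for AGAP004582, 3.39 for AGAP005420, 2.90 for AGAP005795, -2.65 for AGAP005997, -2.47 for AGAP008447, -1.70 for AGAP004501, -1.62 for AGAP001945 and -1.35 for AGAP004935, on the log2 scale.

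The interaction at 66 h differed from that at 18 h in 114 genes. Of the 10 identifiers, 4 were among them, with differences of -3.17 for AGAP004501, -1.45 for AGAP005997, 1.80 for AGAP005795 and -1.13 for AGAP001945. The differences for AGAP005795 and AGAP001945 (limma adjusted p 0.0437 and 0.0355) rest on many libraries: leaving out a single one of the 32 ended the call in 22 fits for AGAP005795 (limma adjusted p up to 0.0765) and in 14 for AGAP001945 (up to 0.0689). The call for AGAP005795 was also lost after quantile normalisation (0.0836), with edgeR (0.0978), at equal library sums (0.0503), with thinned libraries (0.0801) and without An. coluzzii FW replicates 3 and 4 (0.0594). That for AGAP001945 was lost after quantile normalisation (0.0895), with thinned libraries (0.391, where the difference was -0.76) and without those replicates (0.0867).

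In AGAP004582, 1 library was flagged as outlying in each of 2 groups. These were An. merus FW replicate 2 at 0.077 CPM, which is 1 read, and An. coluzzii FW replicate 3 at 0.721 CPM, which is 4 reads. They came from 2 of 40 sets of 4 libraries examined. The rule flags about 1 in 20 sets by chance where values are continuous and normally distributed. That rate does not hold for so few reads, since 1 read beside libraries with 0 is always flagged.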

How the results depend on the processing

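The count of 3368 genes with an interaction was 2457 to 3931 over 12 other settings. It was 3096 to 3332 without each of the 16 libraries at 66 h in turn. Libraries at 18 h were left out in turn only for the difference between ages. None of the 10 named interactions lost its call or changed direction in a setting that gave it a value. The change was larger in An. merus in 93.3 to 97.6% of the called genes. DESeq2 called 3378 genes, 53.6% of them positive. The count of 987 genes with an absolute interaction of at least 1 was 562 with a pseudocount of 4 CPM. The count of genes whose interaction differed between ages was 74 after quantile normalisation, 219 with DESeq2, 74 with thinned libraries and 63 to 141 without each library in turn. The count of genes changed in An. coluzzii was 105 with libraries thinned to 3769859 reads. It was 110 to 258 without each library at 66 h in turn. Genes called in opposite directions numbered 17 with DESeq2, 2 with thinned libraries and 13 without An. coluzzii FW replicates 3 and 4, whose deviations from their group correlated (r = 0.37). Genes larger and called in An. coluzzii numbered 22 at a minimum of 5 CPM, 17 with thinned libraries and 59 without those 2 replicates. The cause was not tested. No paired analysis was possible because the labels give each library a number of its own and no number shared between groups. Genes with low values had larger errors, with a median standard error of 0.29 below 5 CPM against 0.174 at 100 CPM or more.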

Other observations

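Called interactions of the same sign sometimes stood beside each other in identifier number, which is not used here as a map position. Of the runs of neighbouring identifiers in the whole table, 412 held 2 genes, 91 held 3, 28 held 4, 3 held 5 and 1 held 6, while 2138 called genes had no such neighbour. With 14.5% of all tested genes called positive and 17.5% negative, such runs also arise in a random order. How many would arise was not computed, so the counts do not show grouping. The longest run, AGAP007688 to AGAP007693, had a negative interaction in all 6, with a median of -0.82. No test was made of these runs.

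Some genes had 0 reads in every library of a species at 66 h: 8 genes in the 8 An. merus libraries, 3 of which had a called interaction, and 1 gene in the 8 An. coluzzii libraries, which had one too.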
